A study of Mus musculus with 8 samples.

Results

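Chemokines are small secreted proteins that steer the movement of white blood cells, and their receptors are G protein-coupled receptors on the moving cells. CXC ligands with an ELR motif attract neutrophils through Cxcr1 and Cxcr2, many CC ligands attract monocytes through Ccr1 and Ccr2, and a further set places lymphocytes in tissue through Ccr7, Cxcr5 and related receptors. In epithelial tumors such ligands come from the tumor cells as well as from fibroblasts, macrophages and neutrophils. The genes described here are all chemokines, chemokine receptors and atypical chemokine receptors found by symbol in the count table: 63 of 24419 genes, of which 41 encode ligands and 22 receptors. After removal of genes with low counts 50 of the 63 remained for testing, and 5 of the others, Ccl21a, Ccl21b, Ccl21c, Ccl26 and Ccl27b, had 0 counts in every library. Ccl21a, Ccl21b and Ccl21c are near-identical copies, as are Ccl27a and Ccl27b, so their counts are uncertain.

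The endometrial cancer models were TPM, TPMCa, TPMR1 and TPK, each with 2 bulk libraries of polyA RNA. All models grew from uterus organoids of CAG-Cas9-EGFP mice, in which the ubiquitous CAG promoter drives Cas9, and all carried an sgRNA against Trp53 among their edits. TPM, TPMCa and TPMR1 also overexpressed Myc, TPMCa added a mutant Pik3ca cDNA and TPMR1 an sgRNA against Pik3r1. TPK carried no Myc cDNA. The labels name the material tumor organoids from nude mice, whereas the methods describe tumor tissue after transplantation of the organoids into the uterus of young adult female BALB/cA-nu mice. The organoid donors were young adult females as well. Nude mice lack a thymus and most mature T cells but keep neutrophils, monocytes, B cells and NK cells, so the lymphocyte chemokine axes were read in hosts with few T cells. By the study's description the replicates of a model came from separate mice, which the labels do not state, and p-values measure the spread between them. The count table heads the columns taken here as TPM with TPMS, a name absent from the labels, and they were matched by the shared start and replicate number, so every TPM value rests on that match. In bulk RNA fewer cells of a type and less RNA per cell cannot be told apart.

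Total counts lay between 15748396 and 26943611 per library. A floor of 3 counts equaled 0.116 to 0.198 CPM (counts scaled to a common library size by the TMM method), which covers counting error only, and 41 to 53 of the 63 genes lay above it in a library. Myc stood at 154 and 92.8 CPM in TPK and between 324 and 3075 CPM in the 6 libraries of the models with Myc cDNA, whereas the mRNA levels of Trp53 and Pik3r1 do not check an sgRNA. The labelled epithelial origin was checked against 6 epithelial markers (Epcam, Cdh1, Krt7, Krt8, Krt18, Krt19). They summed to 2941 to 5498 CPM in TPM and TPK and to 6.47 to 73.3 CPM in TPMCa and TPMR1, where Epcam reached 5.003 CPM at most. The check thus bore out the label in TPM and TPK but not in TPMCa and TPMR1, the reference of the main comparisons. The study describes TPMCa and TPMR1 tumors as adenocarcinoma with glandular structures. The reason for this difference was not tested. Replicate 1 of TPMR1 stood apart for the chemokine genes. All 63 genes summed to 152 CPM there, against 1130 CPM in replicate 2 of TPMR1 and 934 to 2515 CPM in the other 6 libraries. It held the lowest value of 27 of the 50 tested genes, against 21.3% of all tested genes. For some genes, but not all, the changes are therefore given with and without this library. Replicate 2 of TPMCa held the highest value of 19 of the 50, against 10.9% of all tested genes.

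The neutrophil-attracting ligands lie together on chromosome 5, with the platelet ligand Pf4 among them. The order is Cxcl5, Ppbp, Pf4, Cxcl3, Cxcl15, Cxcl1 and Cxcl2, with starts from 90759360 to 90903871 on the plus strand (GRCm38, GENCODE M21). Some neighboring genes of this cluster shared a pattern across the models, such as Cxcl5 and Ppbp, while others, such as Ppbp and Pf4, did not. The bases just upstream of the start are shown for 5 of these ligands. Each line gives the 120 bases that end at the RefSeq start (GRCm38.p6, plus strand), which for Cxcl1 and Cxcl2 lies some bases inside the GENCODE gene, and capitals mark kappa B letters, the kind of site that NF-kB binds, searched on both strands as GGG, then any 3 letters, then TTCC. Matches of opposite strands overlap where the letters form a palindrome, and are then shown as 1 run.
Cxcl1, chr5:90891125-90891244: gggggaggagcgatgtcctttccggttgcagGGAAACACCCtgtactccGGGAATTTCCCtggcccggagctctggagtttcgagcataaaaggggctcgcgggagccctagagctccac
Cxcl2, chr5:90903779-90903898: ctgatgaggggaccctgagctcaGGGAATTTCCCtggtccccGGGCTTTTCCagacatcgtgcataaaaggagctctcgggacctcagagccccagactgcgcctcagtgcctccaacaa
Cxcl3, chr5:90785981-90786100: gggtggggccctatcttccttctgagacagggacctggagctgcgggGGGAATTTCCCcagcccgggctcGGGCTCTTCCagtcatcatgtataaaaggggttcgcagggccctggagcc
Ppbp, chr5:90768398-90768517: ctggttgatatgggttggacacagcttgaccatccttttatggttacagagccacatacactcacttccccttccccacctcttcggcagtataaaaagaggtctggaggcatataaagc
Cxcl15, chr5:90794414-90794533: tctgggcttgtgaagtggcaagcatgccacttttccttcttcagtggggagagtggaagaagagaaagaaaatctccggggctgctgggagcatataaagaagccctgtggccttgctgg
Cxcl1, Cxcl2 and Cxcl3 each held the run GGGAATTTCCC and a further match. Ppbp and Cxcl15 held none in the 250 bases upstream that were searched. Cxcl5 was not searched. These letters were in 4.65% of the 32851 RefSeq promoters searched and in those of 9 of the 47 chemokine and receptor genes among them: Ccl1, Ccl20, Ccl9, Ccr3, Ccr6, Cxcl1, Cxcl10, Cxcl2 and Cxcl3. The AP-1 letters TGANTCA, also searched on both strands, were in 6.75% of all promoters and in those of 7 of the 47 genes. A match is a description of the letters and not evidence of binding.

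Among the 6 neutrophil-attracting ligands, Cxcl5, Ppbp and Cxcl15 were high in TPM and TPK and low in TPMCa and TPMR1, while Cxcl1 and Cxcl2 were highest in TPMCa. Cxcl5, an ELR ligand made by many epithelia, stood at 119.6 and 168 CPM in TPM and 318 and 493 CPM in TPK. It stood at 17.4 and 8.85 CPM in TPMCa and 0.232 and 9.12 CPM in TPMR1, so all 4 TPM and TPK values lay above all 4 others. Against the mean of TPMCa and TPMR1, the log2 fold change was 5.70 ± 1.06 (SE) in TPK, with an adjusted p of 0.0181 from edgeR's quasi-likelihood test. In TPM it was 4.20 ± 1.01 and missed the threshold of 0.05 at an edgeR adjusted p of 0.051. DESeq2, an alternative tool, called Cxcl5 as higher in TPM (adjusted p = 0.000517). Without replicate 1 of TPMR1 the change in TPM was 3.71 ± 0.42 with an adjusted p of 0.0056 from edgeR, and without replicate 2 it was 6.34 ± 0.51. In TPK the call was lost without either TPMCa library or either TPK library, with log2 fold changes from 5.35 to 5.98.

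Ppbp encodes a precursor that platelets store and that yields a neutrophil-attracting ELR ligand. Its level was 315 and 25.3 CPM in TPM, 361 and 431 CPM in TPK, 3.23 and 2.89 CPM in TPMCa and 0.0774 and 1.78 CPM in TPMR1. The groups did not overlap, although the TPM replicates differed widely. Ppbp rose in TPM by a log2 fold change of 6.68 ± 1.18 and in TPK by 7.90 ± 1.23 (edgeR adjusted p = 0.0186 and 0.0103). Without replicate 1 of TPM the change in TPM was 3.91 and missed the threshold (edgeR adjusted p = 0.12), and the calls were lost without either TPMCa library and, in TPK, without replicate 2 of TPK. The 6 platelet marker genes differed among themselves, and edgeR called none of the 5 tested. Itga2b ran from 5.23 to 9.51 CPM over the libraries, and Gp9 and Treml1 stayed at or below 0.89 CPM. Gp1ba stood at 0.542 to 1.38 CPM in TPM and TPK and 1.65 to 2.63 CPM in TPMCa and TPMR1. Gp1bb, a subunit of the platelet von Willebrand factor receptor, was highest in TPM, at 9.15 and 2.40 CPM. It stood at 1.31 and 0.725 CPM in TPK and 0.232 to 1.61 CPM in TPMCa and TPMR1. Itgb3, an integrin subunit that other cells also make, stood at 6.72 to 14.2 CPM in TPM and TPK and 20.7 to 149 CPM in TPMCa and TPMR1. The part of platelet content in Ppbp was not tested. Pf4, the platelet ligand that is its neighbor on the chromosome, was lower in TPM than in TPMCa, at 8.19 and 1.77 against 64.7 and 70.0 CPM, and stood at 2.25 and 21.6 CPM in TPMR1 and 18.6 and 22.9 CPM in TPK. Pf4 passed the threshold in none of the comparisons by edgeR with all libraries.

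Cxcl15, a mouse ligand known as lungkine that attracts neutrophils in airways, stood at 3.61 and 6.81 CPM in TPM and 4.11 and 117 CPM in TPK. TPMCa and TPMR1 held 3 counts in all, in replicate 2 of TPMCa, where the value was 0.167 CPM. The mean of TPK was 1565 times the pooled level of these 4 libraries (95% exact Poisson interval 536 to 7590, counting error only), and that of TPM 135 times (46.1 to 653). The rise was called in TPK (edgeR adjusted p = 0.015) and missed the threshold in TPM (edgeR adjusted p = 0.0521). DESeq2 called Cxcl15 as higher in TPM (adjusted p = 1.23e-05). The TPK replicates lay far apart, and without replicate 2 of TPK, or without either TPMCa library, the edgeR call in TPK was lost. Cxcl3, an ELR ligand close to Cxcl1 and Cxcl2, stood at 49.4 and 52.7 CPM in TPM, 46.8 and 178 CPM in TPK, 27.4 and 32.6 CPM in TPMCa and 0.232 and 16.4 CPM in TPMR1. Its log2 fold changes of 1.70 ± 1.14 in TPM and 2.83 ± 1.15 in TPK did not pass the threshold (edgeR adjusted p = 0.405 and 0.146), but all 4 TPM and TPK values lay above the 4 others. Without replicate 1 of TPMR1 Cxcl3 was called in TPK, with a log2 fold change of 2.34 ± 0.55 (edgeR adjusted p = 0.0347). Without replicate 2, which leaves the low library alone for TPMR1, it was called in both, with 4.25 ± 0.65 in TPM and 5.39 ± 0.68 in TPK (edgeR adjusted p = 0.011 and 0.0053).

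Cxcl1 and Cxcl2, inflammatory ELR ligands released early by stromal cells, macrophages and neutrophils, were not high in TPM and TPK. Cxcl2 was highest in TPMCa and in replicate 2 of TPMR1, at 650 and 273 CPM and 323 CPM, and stood at 26.5 and 127 CPM in TPM, 22.8 and 46.9 CPM in TPK and 1.39 CPM in replicate 1 of TPMR1. Cxcl1 stood at 203 and 54.98 CPM in TPMCa, 1.66 and 49.0 CPM in TPMR1, 16.3 and 21.2 CPM in TPM and 28.2 and 29.3 CPM in TPK. Neither passed the threshold, with log2 fold changes of -1.83 ± 1.66 and -2.97 ± 1.77 for Cxcl2 and -1.61 ± 1.17 and -0.99 ± 1.13 for Cxcl1 in TPM and TPK. The sign rested on a single library. Without replicate 1 of TPMR1 Cxcl2 fell in TPK by 3.47 on the log2 scale (SE 0.85, edgeR adjusted p = 0.0384), and without replicate 2 the values of Cxcl1 and Cxcl2 turned positive in TPM and TPK, at 0.35 and 1.59 in TPM and 0.97 and 0.46 in TPK. Summed over the 6 ligands, the libraries held 530.1 and 401 CPM in TPM, 901 and 373 CPM in TPMCa, 3.60 and 399 CPM in TPMR1 and 781 and 1295 CPM in TPK. The sum therefore overlapped between TPM and TPMCa, while its makeup differed, with Cxcl5 and Ppbp the main part in TPK and Cxcl2 in TPMCa.

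**Figure D1:**
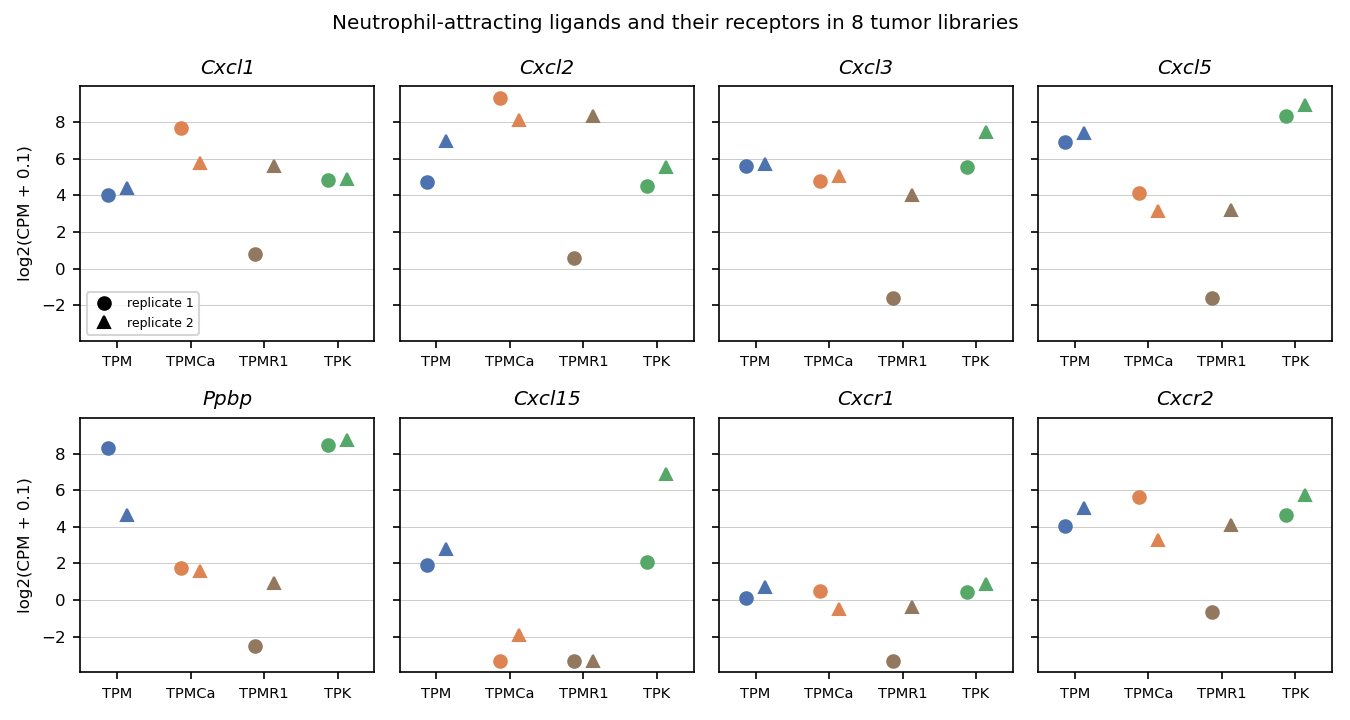
The 8 panels plot log2(CPM + 0.1) of the 6 neutrophil-attracting ligands and of Cxcr1 and Cxcr2 by model, with a circle for replicate 1 and a triangle for replicate 2. Cxcl5, Ppbp and Cxcl15 lie higher in TPM and TPK than in TPMCa and TPMR1, Cxcl1 and Cxcl2 are highest in TPMCa, and replicate 1 of TPMR1 is low throughout.

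**Figure D2:**
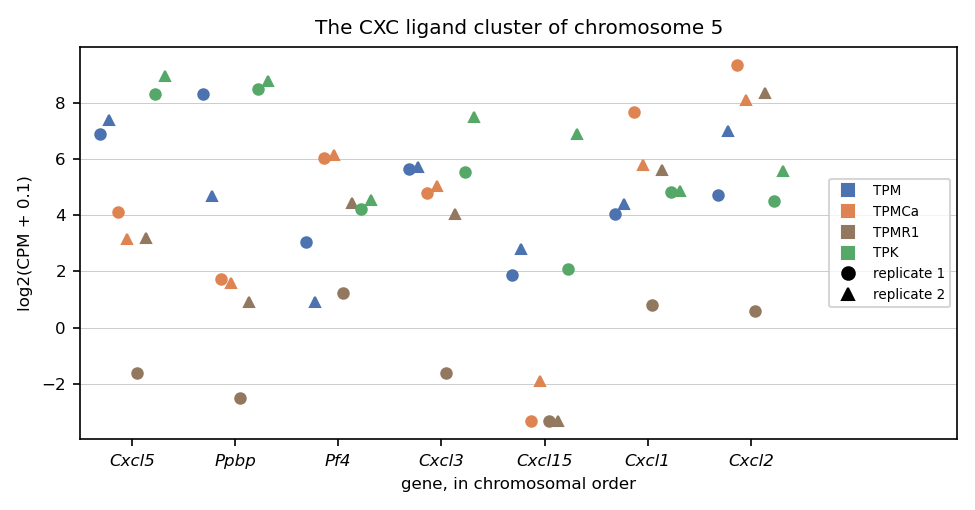
The plot gives log2(CPM + 0.1) of the 7 ligand genes of the chromosome 5 cluster in chromosomal order, with a point per library, colors for the models and shapes for the replicates. Cxcl5, Ppbp and Cxcl15 are high in TPM and TPK, while Pf4, Cxcl1 and Cxcl2, in the same cluster, are highest in TPMCa.

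The receptors for these ligands were not called with all libraries. Cxcr2, the main neutrophil receptor for ELR ligands, stood at 16.2 and 32.0 CPM in TPM, 48.8 and 9.74 CPM in TPMCa, 0.542 and 17.4 CPM in TPMR1 and 25.0 and 52.5 CPM in TPK. Cxcr1, which binds a subset of these ligands, was low throughout, at 0.963 and 1.54 CPM in TPM, 1.33 and 0.612 CPM in TPMCa, 0 and 0.667 CPM in TPMR1 and 1.26 and 1.71 CPM in TPK. Both overlapped between the groups, with log2 fold changes of 0.58 ± 1.16 and 1.26 ± 1.14 for Cxcr2 in TPM and TPK and adjusted p of 0.796 and 0.486 by edgeR. Without replicate 2 of TPMR1 both were called in TPK, at 3.27 ± 0.82 for Cxcr2 and 4.18 ± 1.03 for Cxcr1 (edgeR adjusted p = 0.041 and 0.039). Of 14 neutrophil markers 13 were tested, and all 14 summed to 394 CPM in replicate 2 of TPMCa, the lowest, 927 CPM in replicate 1 of TPMR1 and 9348 CPM in replicate 1 of TPK, the highest. The sum of 12, leaving out Ltf and Lcn2 (a choice made after their values were seen), was 541 and 921 CPM in TPM, 2996 and 358 CPM in TPMCa, 18.2 and 582 CPM in TPMR1 and 756 and 728 CPM in TPK, and no gene of the 11 tested passed the threshold. This sum, like Cxcr2, was lowest in replicate 1 of TPMR1. The excluded pair encodes antibacterial proteins that glandular epithelium also makes, and Ltf alone reached 1389 to 8456 CPM in TPM and TPK against 0.503 to 58.8 CPM in the other models. Lcn2 stood at 908 CPM in replicate 1 of TPMR1 and ran from 31.7 to 1933 CPM in the other libraries. Csf3r, a receptor that defines neutrophils, ran from 62.4 to 206 CPM in 7 libraries and stood at 2.32 CPM in replicate 1 of TPMR1, the library where Cxcr2, Cxcl1, Cxcl2 and Cxcl3 were also lowest. The part of neutrophil content in these values was not tested.

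In the test over all genes, TPM differed from the mean of TPMCa and TPMR1 in 5 of the 50 tested chemokine and receptor genes, all higher in TPM: Cxcl17, Ppbp, Cx3cl1, Ccl28 and Cxcl16. This is 10% of the 50, while edgeR called 8.89% of all 15875 tested genes, 7.44% higher and 1.45% lower, so the share lay near the background. Without replicate 1 of TPMR1 there were 8 calls among 56 tested members, 14.3%, beside 11.8% of all genes in that fit. Cxcl17, Cx3cl1 and Ppbp remained, Cxcl5 was added as higher, and Ackr3, Ccr1, Cxcr4 and Pf4 were called as lower in TPM. Without replicate 2 of TPMR1 6 of 56 were called, 10.7%, beside 12.3% of all genes: Cxcl17, Cx3cl1, Ppbp, Cxcl5, Cxcl3 and Ccl20, all higher. The median log2 fold change of the 50 was -0.43, against -0.02 over all tested genes. In TPK, 8 genes were higher (Cxcl17, Cxcl15, Ppbp, Ccl20, Cxcl5, Cx3cl1, Cxcl16, Cxcl10) and 1, Ccl27a, was lower. That is 18% of the 50, beside 14.4% of all genes, 10.3% higher and 4.06% lower. Without replicate 1 of TPMR1 the number was 14 of 56, 25%, beside 18.7% of all genes, when Cxcl3 was added as higher and Ackr2, Ccl3, Cxcl2 and Cxcr4 as lower. Without replicate 2 of TPMR1 it was 15 of 56, 26.8%, beside 18.1% of all genes, when Cxcl3, Cxcr1, Cxcr2, Ccl6, Ccl9 and Ccr1 were added, all as higher. It was 2 of 56 (Cxcl17 and Cx3cl1), 3.57%, beside 3.23% of all genes, without replicate 2 of TPK. The median was 0.65, against 0.00 over all genes. At an unadjusted p under 0.05, 17 of the 50 genes passed in TPM and 16 in TPK, beside 24.9% and 32% of all genes. All of these also had a log2 fold change beyond 1, the threshold of the study's methods, which 20% and 25.2% of all genes passed. The comparisons of TPM and TPK share the 4 TPMCa and TPMR1 libraries and are not independent.

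**Figure D3:**
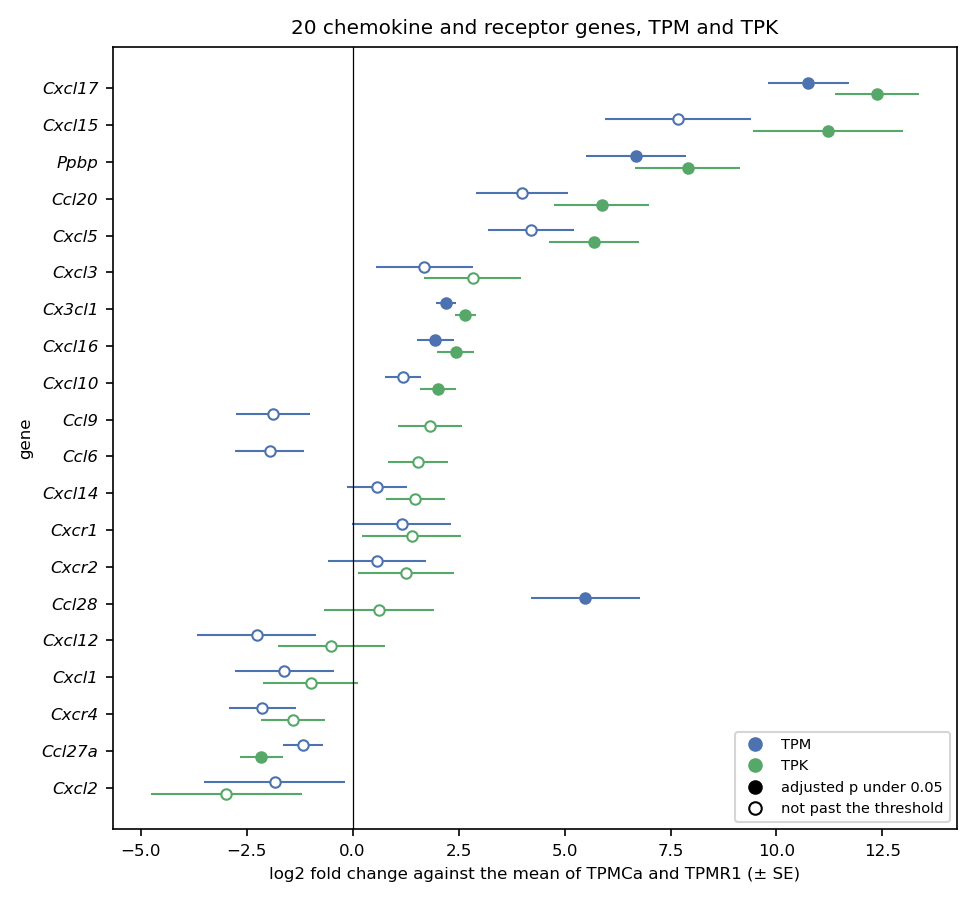
The points give the fitted log2 fold change (± SE) of 20 chemokine and receptor genes in TPM and TPK against the mean of TPMCa and TPMR1, filled where the edgeR adjusted p lay under 0.05. Cxcl17, Cx3cl1, Cxcl16 and Ppbp are filled for both models, and the fitted values of Cxcl15 and Cxcl17 depend on the prior count, since they had 3 and 5 counts over the 4 TPMCa and TPMR1 libraries.

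Cxcl17, Cx3cl1, Cxcl16 and Ccl20 are ligands that mucosal and other epithelia make. Cxcl17, a mucosal ligand that attracts monocytes and dendritic cells, gave the sharpest contrast. It stood at 58.6 and 55.3 CPM in TPM and 61.3 and 288 CPM in TPK, against 0.253 and 0.0557 CPM in TPMCa and 0 in both TPMR1 libraries. TPMCa and TPMR1 together held 5 counts. The mean of TPM was 883 times their pooled level (95% exact Poisson interval 378 to 2720) and that of TPK 2707 times (1160 to 8337), and edgeR gave adjusted p of 0.00358 and 0.00222. Both calls held under every alternative and without each library in turn.

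Cx3cl1 encodes fractalkine, a membrane-bound ligand that captures Cx3cr1-bearing monocytes and can be shed. It stood at 43.0 and 49.2 CPM in TPM, 52.5 and 73.8 CPM in TPK, 9.88 and 9.29 CPM in TPMCa and 9.53 and 11.2 CPM in TPMR1. The replicates lay close together in every model, and replicate 1 of TPMR1 did not stand apart for this gene. Cx3cl1 rose in TPM by a log2 fold change of 2.21 ± 0.24 and in TPK by 2.66 ± 0.24 (edgeR adjusted p = 0.00389 and 0.0019), and these calls also held under every alternative. Its receptor Cx3cr1 did not move with it. Cx3cr1 stood at 10.2 and 8.01 CPM in TPM, 14.6 and 20.5 CPM in TPK, 1.01 and 102 CPM in TPMCa and 13.4 and 4.34 CPM in TPMR1.

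Cxcl16, a membrane-bound ligand of Cxcr6 and a scavenger receptor, stood at 85.1 and 69.5 CPM in TPM and 86.5 and 129 CPM in TPK. In TPMCa it stood at 20.1 and 64.4 CPM and in TPMR1 at 9.45 and 9.45 CPM, so replicate 2 of TPMCa came close to TPM. It rose by a log2 fold change of 1.95 ± 0.44 in TPM and 2.43 ± 0.44 in TPK (edgeR adjusted p = 0.0415 and 0.0161). The call in TPM was lost in 6 of the 8 fits without a library, and that in TPK without either TPK library. Of the 3021 exonic bases of Cxcl16 552 overlap exons of Zmynd15 on the other strand, and the strand setting of the counting is not given in the sources used here. Zmynd15 ran from 1.94 to 13.2 CPM. Cxcr6, the receptor of Cxcl16, stayed between 0.0387 and 1.73 CPM.

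Ccl20, the epithelial ligand of Ccr6, stood at 3.73 and 1.89 CPM in TPM, 2.86 and 17.9 CPM in TPK, 0.823 and 0.278 CPM in TPMCa and 0 and 0.111 CPM in TPMR1. TPK rose (log2 fold change 5.87 ± 1.11, edgeR adjusted p = 0.0191), though without replicate 2 of TPK the change was 4.02 and the call was lost, as it was without either TPMCa library. In TPM the change was 3.995 ± 1.08 and missed the threshold (edgeR adjusted p = 0.0716), and without replicate 2 of TPMR1 it was 5.51 ± 1.34 and passed (edgeR adjusted p = 0.0475). DESeq2 called Ccl20 as higher in TPM with all libraries (adjusted p = 0.00301). Ccr6 reached 4.34 CPM in replicate 2 of TPMCa and at most 0.361 CPM elsewhere. Ccl28, a mucosal ligand of Ccr10 and Ccr3, was called in TPM and not in TPK. It stood at 9.51 and 30.3 CPM in TPM but at 0.171 and 1.19 CPM in TPK, beside 1.46 and 0.0557 CPM in TPMCa and 0.0774 and 0.445 CPM in TPMR1. Its rise in TPM (5.49 ± 1.28, edgeR adjusted p = 0.047) was lost in all 8 fits without a library. Between TPK and TPM the log2 fold change was -4.87 ± 1.66, which edgeR did not call (adjusted p = 0.678), and DESeq2 did (adjusted p = 0.0464).

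Epithelial marker genes moved with these ligands. All 6 epithelial markers and all 6 squamous markers rose in TPM and in TPK, with median log2 fold changes of 7.15 and 10.16 in TPM and 7.70 and 9.71 in TPK. Squamous markers summed to 4130 to 19579 CPM in TPM and TPK and to 1.36 to 12.3 CPM in TPMCa and TPMR1. The part of epithelial content in the levels of Cxcl5, Ppbp, Cxcl15, Cxcl17, Cx3cl1, Cxcl16 and Ccl20 was not tested.

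Ccl27a, a ligand of Ccr10 known from skin, was the gene that fell in TPK. It stood at 1.89 and 1.65 CPM in TPK, 3.01 and 4.004 CPM in TPM, 4.69 and 6.85 CPM in TPMCa and 12.9 and 8.50 CPM in TPMR1. The 4 models did not overlap. Its change in TPK was -2.15 ± 0.50 (edgeR adjusted p = 0.0358), and it missed the threshold in 6 of the 8 fits without a library. It shares 8 exonic bases with Il11ra1 on the other strand, which stood at 16.9 to 176 CPM. Ccr10, the receptor of Ccl27a and Ccl28, was also highest in TPMR1, at 6.93 and 3.17 CPM, against 0.317 to 2.75 CPM in the other models.

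The interferon-induced ligands Cxcl9, Cxcl10 and Cxcl11 attract T cells and NK cells through Cxcr3. Cxcl10 stood at 31.6 and 22.8 CPM in TPM, 56.0 and 40.1 CPM in TPK, 29.6 and 10.96 CPM in TPMCa and 7.67 and 6.28 CPM in TPMR1. TPK lay above all other libraries, and the rise against the mean of TPMCa and TPMR1 was 2.01 ± 0.42 (edgeR adjusted p = 0.0254). That call was lost without either TPK or either TPM library. In TPM the change was 1.19 ± 0.42 and was not called (edgeR adjusted p = 0.144). Cxcl10 shares 133 of its 2252 exonic bases with Art3 on the other strand, which stood at 0.482 to 18.9 CPM. Cxcl9 ran from 0.167 to 7.47 CPM and Cxcl11, annotated as a polymorphic pseudogene, from 0.167 to 2.90 CPM, and neither passed the threshold by edgeR. DESeq2 called Cxcl11, but not Cxcl9, as higher in TPM and TPK (adjusted p = 0.0344 and 0.0118). Cxcr3 was at 0 in replicate 1 of TPMR1 and replicate 2 of TPK and reached 4.40 CPM in replicate 2 of TPMCa. The 8 NK cell markers, whose cells answer these ligands, summed to 24.8 CPM in replicate 2 of TPMCa and 24.5 and 8.24 CPM in TPK. In the other 5 libraries they summed to 0.611 to 2.35 CPM. Gzma alone made up 17.7 and 5.34 CPM of the TPK sums, while Ncr1 stood at 0.286 and 0.659 CPM and Klrb1c at 0 in TPK. The part of NK cells in these values was not tested.

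The sum of the lymphoid receptors was highest in a single library. The 10 genes summed to 98.9 CPM in replicate 2 of TPMCa and to 6.08 to 18.4 CPM in the other 7 libraries. Among them, Ccr10 was highest in replicate 1 of TPMR1 and Ccr4 in replicate 2 of TPM. Ccr7, which guides naive lymphocytes and mature dendritic cells, stood at 9.44 and 55.5 CPM in TPMCa and at 0.264 to 1.31 CPM in the other 6 libraries. Against the mean of TPMCa and TPMR1, DESeq2 called Ccr7 as lower in TPK (adjusted p = 0.0126) and edgeR did not (adjusted p = 0.115). Cxcr5, the B cell receptor for Cxcl13, stood at 7.73 and 28.6 CPM in TPMCa and at 0.542 to 5.74 CPM elsewhere. Its neighbor on the other strand, Bcl9l, overlaps 110 of its 3332 exonic bases. Lymphocyte markers moved in the same library: 5 B cell markers summed to 164 CPM in replicate 2 of TPMCa and 15.5 CPM in replicate 1, and 8 T cell markers to 45.7 and 9.18 CPM. In the other 6 libraries the B cell sum ran from 2.13 to 90.8 CPM, of which Jchain made up 82.0 CPM in replicate 1 of TPK, and the T cell sum from 1.51 to 14.1 CPM. The part of lymphocyte content in Ccr7 and Cxcr5 was not tested. Of the ligands of these receptors, Cxcl13 ran from 0.389 to 19.8 CPM and Ccl19 from 0 to 1.89 CPM. Ccl21a, Ccl21b and Ccl21c were listed at 0, which sets no limit on their level, since reads shared by such copies can be lost in counting.

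**Figure D4:**
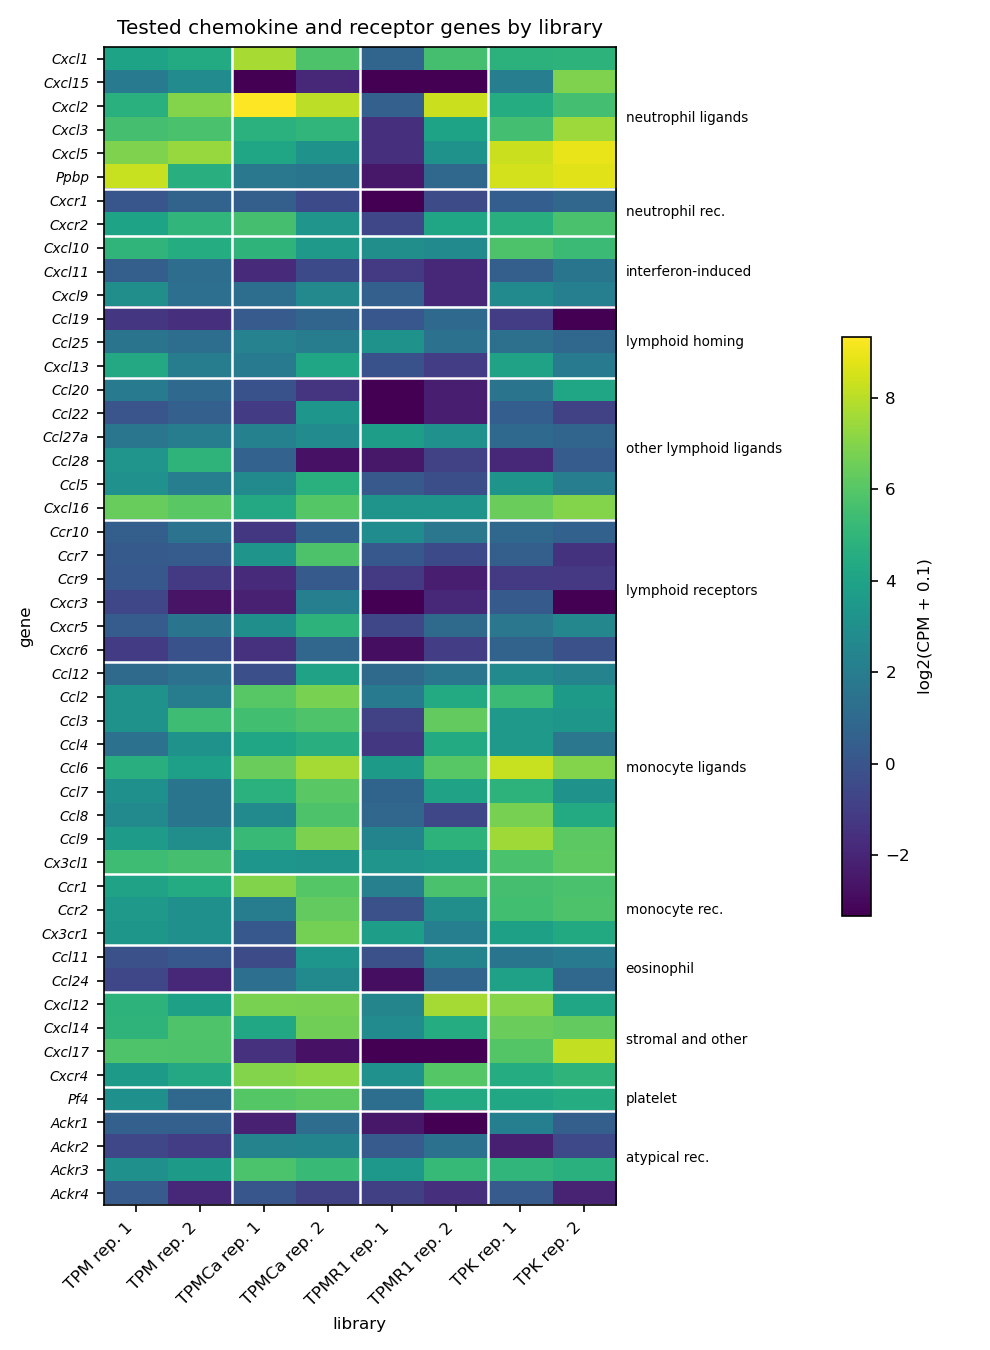
The map gives log2(CPM + 0.1) of tested chemokine and receptor genes (rows, grouped by role) in the 8 libraries (columns). Many genes are darkest in replicate 1 of TPMR1 or brightest in replicate 2 of TPMCa, including Ccr7 and Cxcr5 in the latter, whereas Cxcl17 and Cxcl15 are lighter in TPM and TPK than in the other models.

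Of the 9 monocyte and macrophage ligands, edgeR with all libraries called only Cx3cl1 in TPM or TPK against the mean of TPMCa and TPMR1. It called no member of this group between TPK and TPM. DESeq2 also called Ccl2 as lower in TPM (adjusted p = 0.0255) and Ccl8 as higher in TPK (adjusted p = 0.00338) against that mean. Ccl6 and Ccl9, CC ligands of mouse myeloid cells that signal through Ccr1, were among the 12 genes with the highest mean CPM. Ccl6 stood at 24.5 and 14.3 CPM in TPM, 88.2 and 201 CPM in TPMCa, 11.96 and 66.6 CPM in TPMR1 and 316 and 126 CPM in TPK. Ccl9 stood at 12.4 and 7.44 CPM in TPM, 36.9 and 116 CPM in TPMCa, 5.23 and 29.6 CPM in TPMR1 and 188 and 69.9 CPM in TPK. Against the mean of TPMCa and TPMR1 the log2 fold changes of Ccl6 and Ccl9 were -1.96 ± 0.81 and -1.88 ± 0.87 in TPM and 1.55 ± 0.71 and 1.82 ± 0.76 in TPK. Without replicate 2 of TPMR1 both were called in TPK, at 2.41 ± 0.56 and 2.69 ± 0.66 (edgeR adjusted p = 0.0328 and 0.0382). TPK lay above TPM in both genes, by log2 fold changes of 3.51 ± 0.94 and 3.70 ± 1.02. They were not called by edgeR (adjusted p = 0.653 for both) but were by DESeq2 (adjusted p = 0.0113 and 0.0121).

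Ccl2, the main ligand of Ccr2 and a recruiter of monocytes, stood at 65.3 and 112 CPM in TPMCa, 9.03 and 3.83 CPM in TPM, 3.68 and 21.1 CPM in TPMR1 and 39.7 and 11.7 CPM in TPK. Ccl8 reached 107 CPM in replicate 1 of TPK and 56.7 CPM in replicate 2 of TPMCa and stayed between 0.556 and 21.6 CPM elsewhere. Of the other ligands of this group, Ccl3 ran from 0.465 to 79.8 CPM, Ccl4 from 0.31 to 24.4 CPM, Ccl7 from 1.59 to 67.6 CPM and Ccl12 from 0.76 to 15.8 CPM. Replicate 1 of TPMR1 held the lowest value of Ccl3, Ccl4 and Ccl7. Of the receptors, Ccr1, which binds Ccl3 and Ccl6, stood at 15.7 and 22.0 CPM in TPM, 123 and 65.2 CPM in TPMCa, 4.41 and 51.7 CPM in TPMR1 and 47.9 and 52.5 CPM in TPK. Ccr2, the receptor of Ccl2, stood at 11.6 and 8.18 CPM in TPM, 3.99 and 78.1 CPM in TPMCa, 0.774 and 7.56 CPM in TPMR1 and 46.1 and 55.4 CPM in TPK. Both were lowest in replicate 1 of TPMR1, and neither Ccr1, Ccr2 nor Cx3cr1 was called with all libraries. Ccr1 fell in TPM without replicate 1 of TPMR1 (-1.89 ± 0.36, edgeR adjusted p = 0.0237) and rose in TPK without replicate 2 (1.30 ± 0.34, edgeR adjusted p = 0.0473). The 12 macrophage markers summed to 1320 and 882 CPM in TPM, 2027 and 5610 CPM in TPMCa, 392 and 1040 CPM in TPMR1 and 3762 and 2562 CPM in TPK. The 9 ligands summed to 117 and 134 CPM in TPM, 298 and 661 CPM in TPMCa, 36.4 and 249 CPM in TPMR1 and 762 and 331 CPM in TPK. Both sums were lowest in replicate 1 of TPMR1, but their order differed between other libraries. Cx3cl1 went the other way, with higher levels in TPM than in TPMCa. The part of macrophage content in the monocyte ligands was not tested. All 12 markers had positive log2 fold changes between TPK and TPM, with a median of 1.24 and 3 of them at an unadjusted p under 0.05, and none passed the adjusted threshold by edgeR.

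**Figure D5:**
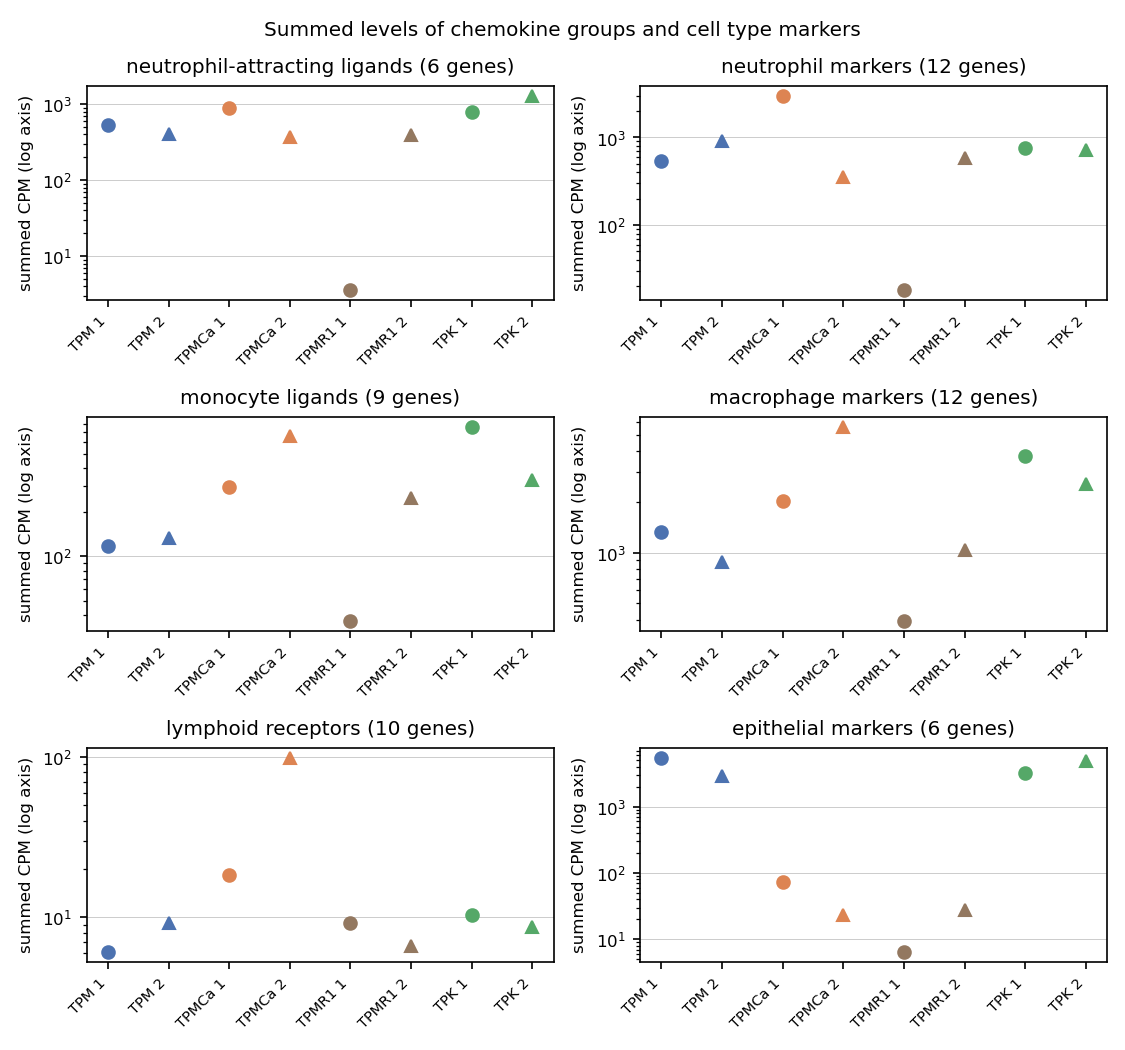
The 6 panels plot summed CPM (log axis) by library of 3 groups of chemokine or receptor genes and of 3 marker lists, with colors for the models and circles and triangles for replicates 1 and 2. Monocyte ligands and macrophage markers are lowest in replicate 1 of TPMR1, lymphoid receptors are highest in replicate 2 of TPMCa at 98.9 CPM, and epithelial markers are at most 73.3 CPM in TPMCa and TPMR1.

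Cxcl12, Cxcl14 and the receptor Cxcr4 also belonged to those 12 genes. Cxcl12, a stromal ligand that retains Cxcr4-bearing cells, stood at 29.1 and 14.7 CPM in TPM, 113 and 106 CPM in TPMCa, 5.27 and 196 CPM in TPMR1 and 131 and 17.7 CPM in TPK. Replicates of TPMR1 and of TPK lay far apart. Cxcr4 stood at 11.9 and 20.02 CPM in TPM, 127 and 144 CPM in TPMCa, 8.25 and 63.9 CPM in TPMR1 and 22.8 and 29.9 CPM in TPK. Its log2 fold change in TPM was -2.13 ± 0.78 (edgeR adjusted p = 0.156), and without replicate 1 of TPMR1 it fell by 2.54 on the log2 scale in TPM and by 1.82 in TPK (edgeR adjusted p = 0.00743 and 0.0142). With all libraries DESeq2 called Cxcr4 as lower in TPM (adjusted p = 0.0254). Cxcl14, a ligand of epithelial and stromal cells, stood at 30.2 and 58.7 CPM in TPM, 19.4 and 97.6 CPM in TPMCa, 6.85 and 23.2 CPM in TPMR1 and 86.6 and 78.4 CPM in TPK, with overlap between the models. Fibroblast markers, which summed to 579 CPM in replicate 1 of TPMR1 and 4020 CPM in replicate 2, also differed within TPMR1. The part of stromal content in Cxcl12 was not tested.

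Of the other lymphocyte ligands and receptors, Ccl5, an attractant of T cells and monocytes, ran from 0.723 to 25.9 CPM, Ccl22, a ligand of Ccr4, from 0 to 9.91 CPM, Ccl25, a ligand of Ccr9, from 1.78 to 8.56 CPM and Ccr9 from 0.111 to 1.11 CPM. The exons of Ccl25 and Ccr9 overlap those of genes on the other strand. Ccl5 and Ccl22 were highest in replicate 2 of TPMCa. The 13 genes that were not tested were the 5 at 0 and Ccl1, Ccl17, Xcl1, Xcr1, Ccr3, Ccr4, Ccr6 and Ccr8. The eosinophil genes Ccl11, Ccl24 and Ccr3 stayed at or below 15.2 CPM, and Ccl1, Ccl17, Xcl1, Xcr1, Ccr4 and Ccr8 at or below 1.39 CPM. Of the atypical receptors, which take up chemokines without classical signaling, Ackr3 had the highest level, 8.05 CPM per kb of exon on average, and ran from 8.07 to 54.02 CPM. Ackr2, a scavenger of inflammatory CC ligands, stood at 5.003 and 5.06 CPM in TPMCa and 1.12 and 2.61 CPM in TPMR1, above the 0.114 to 0.593 CPM of TPM and TPK. Ackr1 ran from 0 to 4.29 CPM and Ackr4 from 0.132 to 1.14 CPM. The log2 fold changes of Ackr2, -2.68 ± 0.86 in TPM and -3.11 ± 0.89 in TPK, were not called by edgeR (adjusted p = 0.114 and 0.0638). DESeq2 called Ackr2 as lower in both (adjusted p = 0.00842 and 0.00173). Per kilobase of exon, the mean over the 8 libraries was highest for Ppbp at 132 CPM per kb, followed by Cxcl2 at 88.9, Cxcl17 at 76.1, Cxcl5 at 76.1 and Ccl6 at 59.1 CPM per kb, levels whose order differed between libraries.

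TPK and TPM did not differ in any chemokine or receptor gene by edgeR (0 of 50, beside 0% of all genes), with 6 of the 50 at an unadjusted p under 0.05, 12%, beside 7.17% of all genes. All 6 had a log2 fold change beyond 1, as did 5.28% of all genes. DESeq2 called 3, Ccl28, Ccl6 and Ccl9, a count given without its share over all genes and so not set against a background. In 24 of the 50 genes both TPK values lay above both TPM values, and in 3 below, beside 24.4% and 23.5% of all genes. The median log2 fold change was 0.88, against 0.01 over all genes, with 37 of the 50 positive. TPMR1 and TPMCa also did not differ in any member by edgeR (0 of 50, beside 0% of all genes), with 11 of the 50 at an unadjusted p under 0.05, 22%, beside 11.8% of all genes, and all 11 with a log2 fold change beyond 1, beside 10.5%. DESeq2 called 7, all lower in TPMR1: Ccl22, Ccl5, Ccl8, Ccr7, Cxcl13, Cxcl16 and Cxcr5. For this count, too, no share over all genes is given. TPMR1 lay below TPMCa without overlap in 26 of the 50 and above it in 2, beside 17.7% and 18.8% of all genes, and the median was -1.90, against 0.01 over all genes. Members differed between replicates as well. Replicates of TPMR1 lay more than 4-fold apart in 21 of the 50 genes (42%, beside 17.3% of all genes), those of TPMCa in 16 (32%, beside 8.31%), those of TPK in 11 (22%, beside 6.31%) and those of TPM in 7 (14%, beside 4.89%). Without replicate 2 of TPMR1, which leaves the low library alone, edgeR called 8 of 56 members lower in TPMR1, 14.3%, beside 8.24% of all genes (4.3% lower), among them Cxcl1, Cxcl2, Cxcl3 and Cxcl5, and without replicate 1 it called none, as of all genes.

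Genes that induce or signal for chemokines were counted from lists. Of 32 tested genes of IL-1, IL-17 and NF-kB signaling, which raise transcription of Cxcl1, Cxcl5 and Ccl20, 2 were higher in TPM and 4 in TPK and none lower by edgeR, or 6.25% and 12.5%, below the 8.89% and 14.4% of all genes called. The median log2 fold changes of the list were 0.16 and 0.56. Il33, an alarmin stored in epithelial nuclei, rose in both (5.06 ± 0.73 and 5.86 ± 0.76), as did Il17rc, a subunit of the IL-17 receptor (1.99 ± 0.29 and 2.23 ± 0.29). Il17rc stood at 111 and 65.5 CPM in TPM and 97.7 and 110.2 CPM in TPK, above 16.9 to 27.0 CPM in the other models. The NF-kB subunits Nfkb1 and Nfkb2 rose in TPK only by the test, by 1.02 ± 0.20 and 1.05 ± 0.26 (edgeR adjusted p = 0.0216 and 0.043). The difference between TPK and TPM was not called for either. Il1b, a strong inducer of Cxcl1 and Cxcl2, ran from 66.3 to 377 CPM in 7 libraries and stood at 0.155 CPM in replicate 1 of TPMR1. Il1b, Cxcl1 and Cxcl2 were all highest in replicate 1 of TPMCa and lowest in replicate 1 of TPMR1. Between these libraries the order differed. Il1b stood at 177 CPM in replicate 2 of TPM and 131 CPM in replicate 2 of TPMCa, where Cxcl1 stood at 21.2 and 54.98 CPM. The part of Il1b in the levels of both ligands was not tested.

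Of 29 genes that act below chemokine receptors, 1 was higher and 1 lower in TPM, and 1 higher and 3 lower in TPK, or 6.9% and 13.8%, below the 8.89% and 14.4% of all genes called. Plcb3, a phospholipase, rose in both (1.29 ± 0.21 and 1.09 ± 0.21). Rgs2, which shortens G protein signals, fell in both (-2.39 ± 0.42 and -1.65 ± 0.40), and Grk6, a receptor kinase, and Elmo1, which links receptors to Rac, fell in TPK (-1.01 ± 0.20 and -3.17 ± 0.73). Elmo1 stood at 203 CPM in replicate 1 of TPMR1 and 6.79 to 49.1 CPM in the other 7 libraries. The medians of this list were -0.52 in TPM and 0.06 in TPK.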

How the data were processed

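The deposited table of whole-number read counts per gene symbol was used. Per the labels and the methods, the authors sequenced polyA RNA, aligned reads to mm10 with STAR and normalized with DESeq2; the normalized table was not used here. Counter, annotation and strand setting are not given in the sources used here. The table heads 2 columns TPMS, which the labels do not name; they were taken as TPM by shared start and number. Counts were fitted in edgeR 4.0.16 (R 4.3.3; TMM, filterByExpr, quasi-likelihood test, a term for model, all 8 libraries, common dispersion 0.269), and p-values were Benjamini-Hochberg adjusted over 15875 genes, with 0.05 as the threshold. DESeq2 1.42.0 and the settings of the closing section were alternatives. Self-tests used simulated counts. Chemokine and receptor genes came from symbols. Their groups, the gene lists and the tests were chosen with earlier results of these data known. Values in every library are given for the 8 neutrophil genes, genes called in a comparison and the 12 with the highest mean CPM; other genes named were chosen for their role or after their values were seen. In pathway lists the called genes are named. With 2 libraries per model a permutation test cannot pass 0.05, and none was run. Depth was 15748396 to 26943611 counts. Protein sequences were not used here, and results on some genes are not reported here.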

Additional observations from a re-analysis of the deposited data

How the results depend on the processing

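Counts of calls depended on the tool. DESeq2 called 15 chemokine and receptor genes (members) in TPM and 14 in TPK against the mean of TPMCa and TPMR1, 3 in TPK against TPM and 7 in TPMR1 against TPMCa, and 3091, 4470, 245 and 806 of all genes. Where counts in this section stand without shares, they show only how calls moved between settings. They do not show whether members were called more often than other genes. At the threshold of the study's methods, an unadjusted p of 0.05 with a 2-fold change, the counts were 17, 16, 6 and 11 members and 3176, 3996, 838 and 1670 genes. Fits of only the models compared gave 3 members and 899 genes in TPM and 1451 genes in TPK, and lost the calls of Ppbp, Ccl28 and Cxcl16 in TPM and of Ccl27a and Cxcl10 in TPK. Scaling by library size alone lost Cxcl16 in TPM. Leaving out a library gave 2 to 8 members and 455 to 2061 genes in TPM, 2 to 15 members and 541 to 3108 genes in TPK, and 0 to 8 members and 0 to 1379 genes in TPMR1 against TPMCa, where a lone library was assumed to vary like the other models. The sign turned for genes that were not called. The log2 fold changes ran from -2.09 to 0.35 for Cxcl1 and from -3.36 to 1.59 for Cxcl2 in TPM, and in TPK from -1.47 to 0.97 for Cxcl1, -3.58 to 0.46 for Cxcl2, -1.31 to 2.42 for Ccl28 and -2.59 to 1.63 for Cxcl12. Replicate numbers did not pair the libraries (correlations of same-numbered deviations from -0.07 to -0.01), and with a replicate block 4 members and 1038 genes were called in TPM and 8 and 1661 in TPK, without Ppbp and Ccl28 in TPM and Ccl27a in TPK. Causes of these changes were not tested. Over the gene results, 549 kept direction and side of the threshold, 51 lost and 33 gained a call, and 7 turned sign. Depth left genes under 0.116 to 0.198 CPM undetectable, and 2 libraries per model limited every test.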
